A study of Mus musculus with 3 samples.

Results

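The SLAM family receptors are immunoglobulin-like surface proteins of blood cells, and SAP is the small adaptor that signals behind several of them. The set read here holds 9 of the 17857 genes in the deposited count table, taken by symbol: the receptor genes Slamf1, Slamf6, Slamf7, Slamf8, Slamf9, Cd48, Cd84 and Ly9, and Sh2d1a, which encodes SAP. They were measured by bulk RNA sequencing of leukocytes from the nodes that drained untreated B16F10 melanomas, a C57BL/6 tumour line, in C57BL/6J mice. Tumours were placed in the upper thigh on each side and nodes were taken on day 14 and pooled. Cells with surface Ly6C and c-kit and without CD11c, which the labels call precursors, were sorted, and the labels give 1 group of 3 libraries, called replicates 1, 2 and 3. No control population enters, so levels were set against fixed references and against one another within a library. How many mice went into a pool, and whether the pools were separate, is not stated in the labels, so each p-value reflects the scatter of these 3 libraries alone, which may be technical.

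Most SLAM receptors bind themselves on a neighbouring cell, and CD48, held by a lipid anchor, binds CD2 and the family member 2B4 in mice. Tyrosine motifs in the receptor tails recruit SAP, which brings the kinase Fyn and blocks access of phosphatases, so that the same receptor can activate or restrain a cell. In lymph nodes the pathway is known for stabilising contacts of T cells with B cells, for the development of natural killer T cells and for killing by NK cells. On mouse marrow, surface CD150 (Slamf1) without CD48 is used to find stem cells.

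The libraries held 9077195, 13885509 and 13861430 counts in replicates 1, 2 and 3, and levels are normalised read counts (CPM, counts per 1000000 of the TMM-scaled library total). Mitochondrial ribosomal RNA took 6.22 to 17.8% of counts. The gene of the required marker c-kit, Kit, was read at 9.83, 5.35 and 5.92 CPM, and Itgax, the gene of the excluded CD11c, at 26.9, 43.2 and 24.0 CPM. Of the genes of Ly6C, the other required marker, Ly6c1 had 19.1, 4.28 and 17.6 CPM and Ly6c2 had 11.5, 121 and 41.2 CPM, so replicate 2 was the lowest for Ly6c1 and the highest for Ly6c2; these close copies may share reads. All 10 T cell marker genes were above 50 CPM in edgeR's test, against 19.9% of all genes tested, with summed levels of 3705 to 4593 CPM. Of the 7 stem and progenitor genes, Myb (75.3, 172 and 102 CPM) lay above 50 CPM and 5 lay below. The shares of all genes tested were 19.9% above and 66.7% below. Cd34 had no count in replicate 2, and Mycn, with too few counts to be tested, had none in replicates 1 and 2. The stem and progenitor list summed to 114 to 229 CPM, beside the larger sum of the 10 T cell genes. The lists differ in length and in kind of gene, so these sums do not weigh the label of precursors. Erythroid genes reached 3682 CPM in replicate 1 alone. In bulk RNA, fewer cells of a type and less RNA per cell cannot be told apart.

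Most of the family's reads came from 4 of the 9 genes. The family summed to 680 CPM in replicate 1, 782 CPM in replicate 2 and 840 CPM in replicate 3 (767 ± 80.8 CPM, SD, n = 3). Cd84, Slamf6, Ly9 and Cd48 together held 82.0, 83.4 and 88.2% of the family's counts. All 9 genes had at least 10 counts in sum and were tested. In edgeR's quasi-likelihood test, with p-values adjusted over all genes by Benjamini and Hochberg's method, 8 of the 9 lay above 1 CPM, against 68.6% of the 15490 genes tested. Above 50 CPM lay 4 of 9, against 19.9% of all genes, and below 50 CPM lay 3 of 9, against 66.7% of all genes. The median member had a mean of 54.6 CPM and the median gene tested 12.4 CPM.

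Among the receptors that bind SAP, Cd84 took the most reads. CD84 binds itself between T and B cells in germinal centres and is also found on myeloid cells and platelets. Cd84 had 232, 273 and 334 CPM in replicates 1, 2 and 3 (280.0 ± 51.3 CPM), a mean above that of 96.4% of all genes tested, and lay above 50 CPM (edgeR adjusted p = 1.69e-06). Slamf6, which encodes Ly108, a receptor that steers T cell help to B cells and marks self-renewing T cells in tumours and chronic infection, had 120 (113 to 127), 155 (149 to 162) and 171 (164 to 179) CPM, with exact 95% Poisson intervals that cover counting error only. Replicate 1 was the lowest for both genes, and the intervals of the 3 libraries did not overlap. Slamf6 lay above 50 CPM (edgeR adjusted p = 3.76e-05).

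Ly9, which encodes CD229, a receptor of T and B cells that binds itself, was the most even member. It had 132, 149 and 141 CPM in replicates 1, 2 and 3 (141 ± 8.92 CPM) and lay above 50 CPM (edgeR adjusted p = 2.72e-05). The SD of its log2(CPM + 0.5) was 0.091, lower than in all but 4.85% of the genes tested. Cd48 had 73.7, 74.4 and 93.5 CPM (80.5 ± 11.2 CPM), close together in replicates 1 and 2 and higher in replicate 3, and lay above 50 CPM (edgeR adjusted p = 0.0027). Cd2, which encodes the T cell partner of CD48, stood above it per kilobase of gene length in each library (311, 299 and 317 CPM per kilobase, against 64.5, 65.1 and 81.9 for Cd48). The gene of the other CD48 partner, 2B4, was not analysed here.

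Slamf1 and Slamf7 differed most between libraries among the well-read receptors, and in opposite ways. Slamf1, the gene of CD150, a SAP-binding receptor that also acts in phagosomes of macrophages, had 44.9 (40.7 to 49.4), 14.7 (12.8 to 16.8) and 37.0 (33.8 to 40.4) CPM in replicates 1, 2 and 3. Replicate 2 was low, and replicate 1 stood 3.06-fold above it. Slamf7, the gene of CRACC, which signals in NK cells through the SAP relative EAT-2, had 41.7 (37.7 to 46.1), 88.6 (83.8 to 93.7) and 33.5 (30.4 to 36.8) CPM. Replicate 2 was high, 2.65 times replicate 3. Per kilobase of gene length, Slamf7 had 10.5, 22.3 and 8.42 CPM and Slamf1 had 16.7, 5.47 and 13.8 CPM, so Slamf7 stood above Slamf1 in replicate 2 and below it in the other libraries.

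Neither Slamf1 (32.2 ± 15.7 CPM, edgeR adjusted p = 0.0756) nor Slamf7 (54.6 ± 29.7 CPM, 0.647) was separated from 50 CPM. Slamf1 passed below 50 CPM without replicate 1 (edgeR adjusted p = 0.0276), with no filter on low counts (0.0434) and in limma-voom (0.00469), within a range of 0.00469 to 0.2103 over its 11 alternatives. The SD of log2(CPM + 0.5) was 0.84 for Slamf1 and 0.73 for Slamf7, larger than in 75.3% and 70.2% of the genes tested.

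Slamf8 and Slamf9, receptors of myeloid cells whose short tails lack the tyrosine motifs, had the fewest reads of the 9 genes. Slamf8, known in macrophages for restraining the NADPH oxidase, had 59, 43 and 20 reads, which is 6.23 (4.75 to 8.04), 3.07 (2.22 to 4.13) and 1.52 (0.928 to 2.35) CPM in replicates 1, 2 and 3. It was highest in replicate 1 and lay above 1 CPM (edgeR adjusted p = 0.00389) and below 50 CPM (0.00222). Without replicate 1 it no longer passed against 1 CPM (0.0619, within a range of 8.56e-04 to 0.0619 over 11 alternatives). Slamf9 had 14, 19 and 3 reads, which is 1.48, 1.36 and 0.228 CPM, and was not separated from 1 CPM (edgeR adjusted p = 0.986). Its 3 reads in replicate 3 equal the limit that a count of 0 allows there, so no fold was formed. It lay below 50 CPM (edgeR adjusted p = 0.0144), but not without replicate 3 (0.112, the highest of 10 alternatives, the lowest being 4.11e-08).

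Sh2d1a, the gene of the adaptor SAP, had 27.8 (24.5 to 31.4), 22.2 (19.8 to 24.8) and 26.8 (24.1 to 29.8) CPM in replicates 1, 2 and 3. Replicate 2 was the lowest, the highest library stood 1.25-fold above it, and the intervals of the 3 libraries overlapped for every pair. It averaged 25.6 ± 3.00 CPM and lay above 1 CPM (edgeR adjusted p = 2.17e-10) and below 50 CPM (0.00219).

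**Figure D1:**
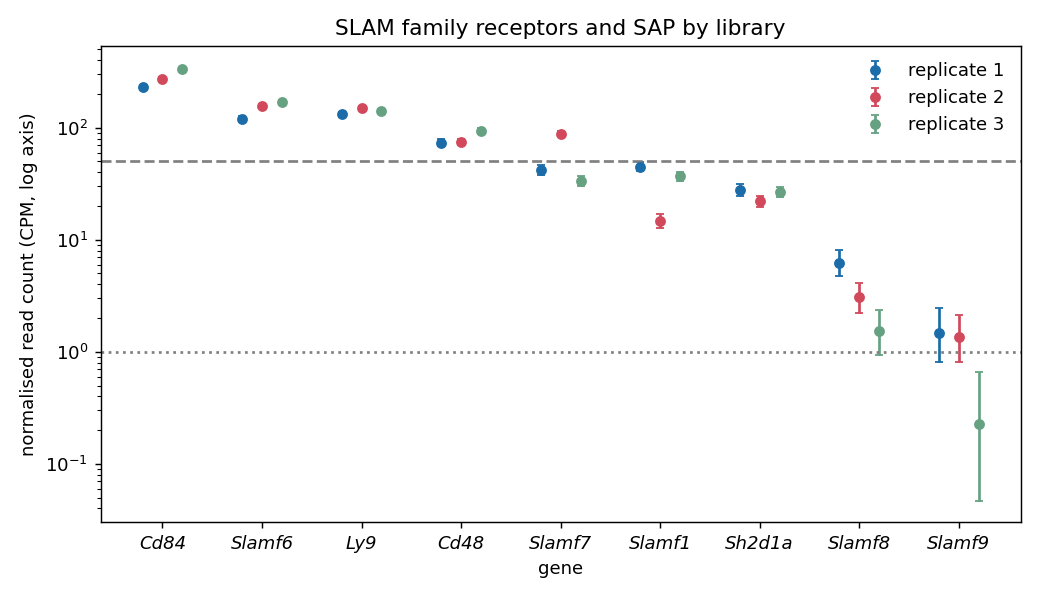
Normalised read counts (CPM, log axis) of the 9 genes in replicates 1, 2 and 3, with exact 95% Poisson intervals as bars and lines at 1 CPM (dotted) and 50 CPM (dashed). Cd84, Slamf6, Ly9 and Cd48 lie above the upper line in all 3 libraries, Slamf7 does so only in replicate 2, and Slamf9 falls to 0.228 CPM in replicate 3.

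Start regions were read for the genes whose levels carry these contrasts. RefSeq promoter windows of GRCm38.p6, the assembly of mm10, run from 250 bases before to 50 after an annotated start. They were matched by gene identifier for 7 of the 9 genes, and Ly9 and Sh2d1a were not matched. The windows of Slamf7, Cd48, Slamf8 and Slamf9 lie wholly inside the RefSeq spans of their genes. A start further out in these genes was not read. Cd84, Slamf6 and Cd48 are shown as members above 50 CPM, and Slamf7 and Slamf1 as the pair that parted in replicate 2. Each runs 5′ to 3′ on the strand of its gene, and capitals mark the letters AGGAAG of ETS factors and TGTGGT of RUNX factors on either strand.
Cd84, chr1:171839447-171839746, plus strand: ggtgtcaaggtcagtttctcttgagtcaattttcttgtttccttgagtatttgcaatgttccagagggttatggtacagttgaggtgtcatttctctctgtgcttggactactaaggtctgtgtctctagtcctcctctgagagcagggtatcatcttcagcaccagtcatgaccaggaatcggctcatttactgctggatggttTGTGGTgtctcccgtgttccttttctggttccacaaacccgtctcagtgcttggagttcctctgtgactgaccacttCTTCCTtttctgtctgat
Slamf6, chr1:171917212-171917511, plus strand: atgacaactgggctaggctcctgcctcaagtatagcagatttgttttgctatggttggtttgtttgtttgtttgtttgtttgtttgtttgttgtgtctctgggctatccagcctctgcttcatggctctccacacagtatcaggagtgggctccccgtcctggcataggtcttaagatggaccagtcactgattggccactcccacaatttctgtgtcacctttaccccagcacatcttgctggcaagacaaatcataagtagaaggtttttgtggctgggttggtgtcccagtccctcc
Cd48, chr1:171681742-171682041, plus strand: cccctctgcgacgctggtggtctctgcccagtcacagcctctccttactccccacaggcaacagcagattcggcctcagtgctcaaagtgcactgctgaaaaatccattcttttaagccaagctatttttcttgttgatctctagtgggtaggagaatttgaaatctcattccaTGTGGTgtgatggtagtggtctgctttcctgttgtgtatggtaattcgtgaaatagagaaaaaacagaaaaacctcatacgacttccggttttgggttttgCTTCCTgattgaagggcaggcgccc
Slamf7, chr1:171648950-171649249, minus strand: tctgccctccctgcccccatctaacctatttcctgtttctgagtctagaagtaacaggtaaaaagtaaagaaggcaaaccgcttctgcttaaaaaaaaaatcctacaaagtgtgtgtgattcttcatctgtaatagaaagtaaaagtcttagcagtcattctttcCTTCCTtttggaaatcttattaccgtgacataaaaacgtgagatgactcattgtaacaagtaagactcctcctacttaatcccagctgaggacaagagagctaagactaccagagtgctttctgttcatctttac
Slamf1, chr1:171766882-171767181, plus strand: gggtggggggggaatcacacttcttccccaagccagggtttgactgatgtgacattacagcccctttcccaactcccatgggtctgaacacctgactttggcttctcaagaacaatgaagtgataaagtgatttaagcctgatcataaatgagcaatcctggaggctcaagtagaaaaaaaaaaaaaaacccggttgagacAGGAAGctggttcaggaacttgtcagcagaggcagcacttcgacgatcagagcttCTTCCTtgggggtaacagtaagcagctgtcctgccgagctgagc

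AGGAAG or its reverse was in 5 of the 7 windows and in 35.4% of all 32851 promoters of the same length. Slamf9 held 3 copies, Slamf1 held 2, and Slamf7, Cd48 and Cd84 held 1 each. TGTGGT was in Cd84, 45 bases before the start, and in Cd48, 76 bases before it, and in 16.8% of all promoters. In Cd48 it overlaps the only T-box word (GGTGTGA, 3.98% of all promoters) found among the 7. CAGNTG, an E-box word, was in 6 of 7 and in 51.4% of all promoters, CTTTGA of TCF and LEF factors in 2 of 7 and 16.0%, and CCAAT in 1 of 7 and 37.4%. The word of interferon regulatory factors, GAAA repeated after any 2 bases, was in Slamf8 alone of the 7 and in 3.44% of all promoters. AGATAA of GATA factors and the TATA box word TATAAA were in none of the 7, against 11.2% and 13.6% of all promoters. All 7 windows held less G and C than the median promoter (39.0% in Slamf7 to 52.3% in Slamf8, against 52.7%), and from 1 CpG in Slamf6 to 7 in Cd48, against a median of 7. A match describes these letters and is no measure of binding.

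Levels of different genes were compared per kilobase of the deposited gene length. On that scale Cd48 stood first with 70.5 ± 9.85 CPM per kilobase, followed by Slamf6 (61.0 ± 10.7), Ly9 (57.5 ± 3.64), Cd84 (44.8 ± 8.21), Sh2d1a (31.3 ± 3.66), Slamf7 (13.7 ± 7.48), Slamf1 (12.0 ± 5.83), Slamf8 (1.77 ± 1.18) and Slamf9 (0.891 ± 0.602). The median member had 31.3 and the median gene tested 5.50 CPM per kilobase. The long Cd84, with 6253 bases, thus fell behind the short Cd48, with 1142 bases, and SAP, with 819 bases, moved ahead of Slamf7 and Slamf1.

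Of the 8 pairs of neighbours in this order, 6 kept one order in all 3 libraries. Slamf6 and Ly9 did not differ beyond their spread (0.07 ± 0.20 log2 units of CPM per kilobase), nor did Slamf7 and Slamf1 (0.21 ± 1.55). The widest steps were Slamf1 over Slamf8 (2.75 ± 1.16 log2 units) and Sh2d1a over Slamf7 (1.30 ± 0.90). An exact sign-flip permutation test over 3 libraries (two-sided) cannot go below 0.25, which the 6 steady pairs reached (0.333 adjusted over the 8 pairs).

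The order also rests on the gene length used. With the union of all exons in GENCODE M21 as the length, an alternative chosen after seeing the data, Cd48 (67.7 ± 9.46 CPM per kilobase) stayed first. Sh2d1a was at 4.65 ± 0.544 and Slamf6 at 13.8 ± 2.41 CPM per kilobase, because that union counts 5505 bases for Sh2d1a in place of 819 and 10832 for Slamf6 in place of 2443. The largest change of order was Slamf6 against Ly9, which stood at -1.64 log2 units (Slamf6 minus Ly9) in place of 0.07. Sh2d1a came below Slamf7 (11.9 ± 6.50) and Slamf1 (5.23 ± 2.55), and Ly9 (42.6 ± 2.70) just below Cd84 (44.6 ± 8.18). Slamf8 and Slamf9 were lowest by either length.

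**Figure D2:**
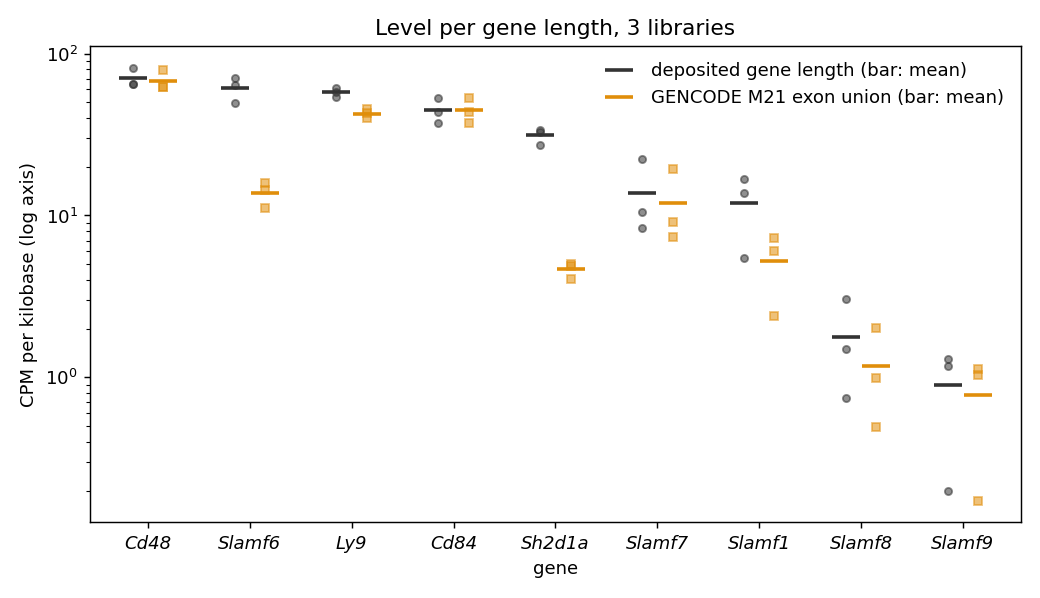
Level of each gene in CPM per kilobase (log axis) in the 3 libraries, with the mean as a bar, for the deposited gene length (black) and the GENCODE M21 exon union (orange). Cd48 is first by both lengths, while Slamf6 moves to 13.8 and Sh2d1a to 4.65 CPM per kilobase with the exon union.

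The profile of each gene over the 3 libraries was set beside 15 lists of sort and cell type markers. Likeness was the Euclidean distance between log2(CPM + 0.5) profiles centred on their own mean, over 93 marker genes and 3 libraries, and is a description with no test. Within the set, Slamf6 and Cd84 were closest (distance 0.114 log2 units), then Cd48 and Cd84 (0.167). Slamf6 was nearest to the T cell genes Lef1 (0.227) and Il7r (0.229), Cd48 to Cd5 (0.193) and Cd3d (0.216), and Sh2d1a to Trac (0.118) and Cd5 (0.130). The T cell list summed to 3705, 4349 and 4593 CPM, but its 10 genes were divided, with 4 highest and 6 lowest in replicate 2. Tcf7 had 793, 1228 and 988 CPM, and Cd3g had 458, 322 and 472 CPM. Ly9 was nearest to Gata3 (0.0793), of the innate lymphoid list, and Pacsin1 (0.107), of the plasmacytoid dendritic cell list. Cd84 was nearest to Gata3 (0.301) and then to the T cell gene Il7r (0.327).

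Slamf1, low in replicate 2, was nearest to Rora (0.0355), a factor of innate lymphoid and T cells, with 19.5, 6.35 and 16.6 CPM, and then to the stem cell factor gene Hlf (0.0869), with 2.75, 0.571 and 1.97 CPM. Cd4 had the same low library, with 482, 167 and 470 CPM. So did 7 of 9 B cell genes, which summed to 433, 171 and 236 CPM. A low replicate 2 was common among the lists. It was the lowest library for 8 of 9 macrophage, 5 of 6 neutrophil and 5 of 6 erythroid genes. The same held for 6 of 10 T cell genes and 4 of 5 innate lymphoid genes, with Il22 tied with replicate 3. Ly6c1 was lowest in replicate 2 too. The part of these cells in the Slamf1 level was not tested. Across the whole table, 3788 genes stood at 0 in replicate 2, against 632 in replicate 1 and 2199 in replicate 3. Replicate 2 nevertheless held the most counts. The share of all genes with replicate 2 as their lowest or highest library was not computed. The numbers of list genes therefore do not set these cell types apart from the library as a whole. The 7 stem and progenitor genes, which summed to 114, 229 and 145 CPM, were divided, with 3 highest in replicate 2 (Myb, Cdk6 and Flt3), and Meis1 (3.17, 1.43 and 3.11 CPM), Hlf and Cd34 lowest there.

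Slamf7, high in replicate 2, was nearest to the monocyte gene Lyz2 (0.109), with 275, 525 and 217 CPM. Next came Itgae (0.392), of the type 1 dendritic cell list. The 8 monocyte genes summed to 820, 1588 and 537 CPM, with 4 highest in replicate 1 and 4 in replicate 2, and none at 0. All 9 NK cell genes were highest in replicate 2, with sums of 116, 799 and 341 CPM, as were both CD8 chains, with 26.8, 947 and 258 CPM. Ly6c2 was highest in replicate 2 too. The NK and CD8 sums were lowest in replicate 1, and Slamf7 was lowest in replicate 3 (33.5 CPM, against 41.7 CPM in replicate 1). The part of monocytes, NK cells and CD8 T cells in its level was not tested.

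Slamf8 was nearest to Csf1r (0.112), whose product receives the growth signal CSF1 on monocytes and macrophages, with 242, 116 and 65.5 CPM, and Slamf9 to Fcgr1 (0.137), a high-affinity Fc receptor of monocytes, with 11.0, 8.91 and 3.42 CPM. Each had replicate 3 as the lowest library, as its neighbour did. The next nearest to both was Clec9a (0.230 from Slamf8, 0.444 from Slamf9), of the type 1 dendritic cell list, with 13.7, 8.63 and 4.71 CPM. Macrophage genes, highest in replicate 1 for 8 of 9, summed to 970, 96.4 and 221 CPM, with Trem2 at no count in replicate 1 and Vsig4 in replicate 2. Neutrophil genes, highest in replicate 3 for all 6, summed to 172, 67.8 and 693 CPM, and erythroid genes, highest in replicate 1 for all 6, to 3682, 50.1 and 258 CPM. Summed levels of the plasma cell (230 to 320 CPM), type 1 dendritic cell (123 to 219), plasmacytoid dendritic cell (125 to 177) and innate lymphoid lists (77.7 to 96.6, with Il22 at no count in replicates 2 and 3) moved less between libraries. Single genes of those lists moved more, such as Il1rl1 (9.19, 1.14 and 6.76 CPM), Batf3 (3.59, 0.927 and 0.456) and Siglech (29.7, 23.2 and 6.30). Gata3 (65.5, 69.6 and 70.5 CPM) and Pacsin1 (66.6, 68.0 and 68.0) were steady and made up large parts of their lists' sums. Neutrophil Ly6g had no count in replicates 1 and 2, and erythroid Epor none in replicate 2. Replicate 3 was the lowest library of Slamf8 and Slamf9 and the highest of Cd84, Slamf6 and Cd48. The part of macrophages, neutrophils and erythroid cells in these levels was not tested.

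**Figure D3:**
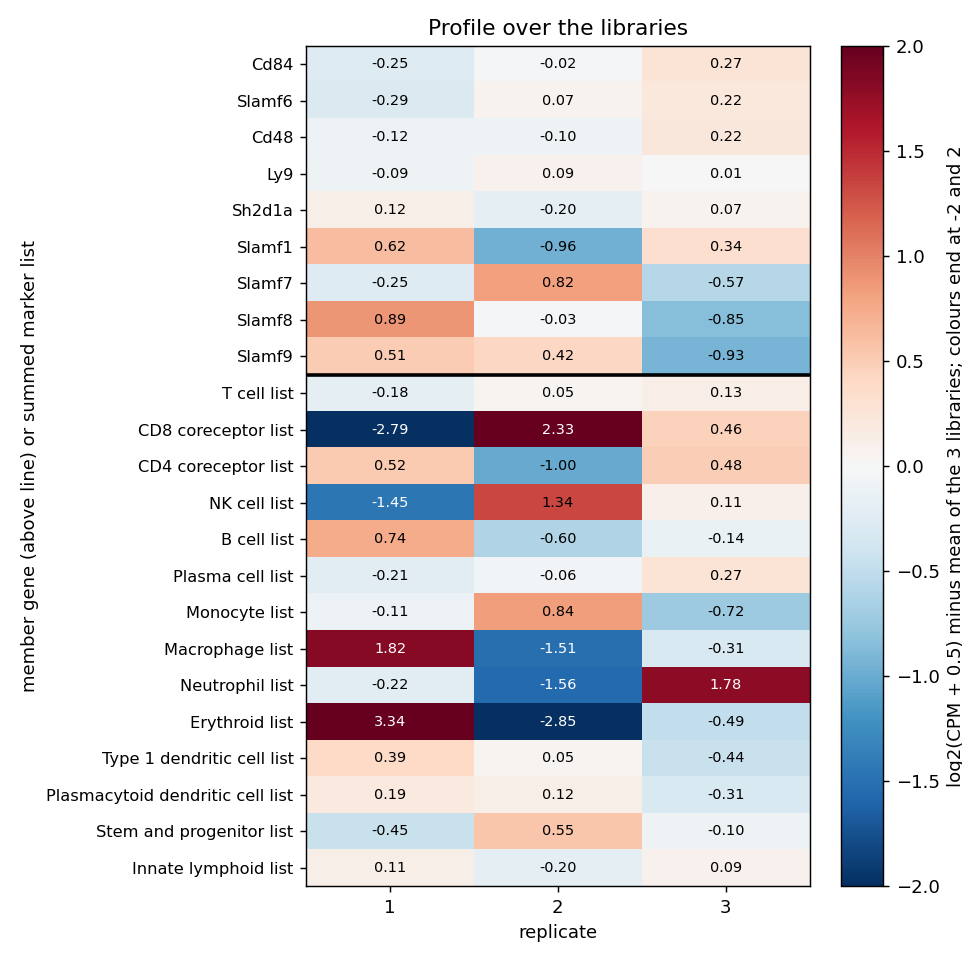
Colour and number give log2(CPM + 0.5) minus its mean over the 3 libraries, for the 9 genes (above the line) and for the summed CPM of 14 marker lists (below). Cd84, Slamf6, Cd48, Ly9 and Sh2d1a stay within 0.29 of 0 in all 3 libraries, as the sum of the T cell list does. Slamf1 and Slamf7 reach -0.96 and 0.82 in replicate 2. Of the 10 T cell genes behind that sum, 4 were highest and 6 lowest in replicate 2.

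The partners of the receptors were read from a list of 29 pathway genes, of which 27 were measured and 26 tested. In edgeR's test 26 lay above 1 CPM, against 68.6% of all genes tested. Above 50 CPM lay 19, against 19.9% of all genes, and below it lay 4, against 66.7%. The other 3 were not separated from 50 CPM. The median measured gene had 42.2 CPM per kilobase, against 5.50 for all genes tested. Of the other SAP family adaptors, Sh2d1b1, which encodes EAT-2, had 3.70, 2.71 and 2.89 CPM and lay below 50 CPM (edgeR adjusted p = 0.00135). Per kilobase it averaged 2.16 ± 0.368 CPM, against 31.3 ± 3.66 CPM for Sh2d1a. Its close copy Sh2d1b2 had 1 read in replicate 1 and none in the others, and reads of such copies may be split in an uncertain way.

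Highest per length outside the receptors and adaptors were Lck, the kinase of the T cell coreceptors, with 165, 237 and 212 CPM per kilobase, and Prkcq, the protein kinase C isoform that SAP and Fyn bring to the contact, with 107, 169 and 163. Fyn itself had 92.5, 141 and 129 CPM per kilobase, so the kinase stood above its adaptor Sh2d1a (33.9, 27.1 and 32.7) in each library. Lowest were Zbtb16, the factor of natural killer T cells, which need SAP to develop, with 3.06, 2.31 and 3.28, and Dok1, an inhibitory docking protein, with 5.73, 8.41 and 6.26 CPM per kilobase. Of the genes of follicular helper T cells, which also need SAP, Cxcr5 (50.8 ± 7.13 CPM, edgeR adjusted p = 0.889), Icos (54.5 ± 18.1, 0.579) and Bcl6 (39.4 ± 6.38, 0.0827) were not separated from 50 CPM. Icos was lowest in replicate 2, with 70.0, 34.5 and 58.9 CPM, as Slamf1 was.

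**Figure D4:**
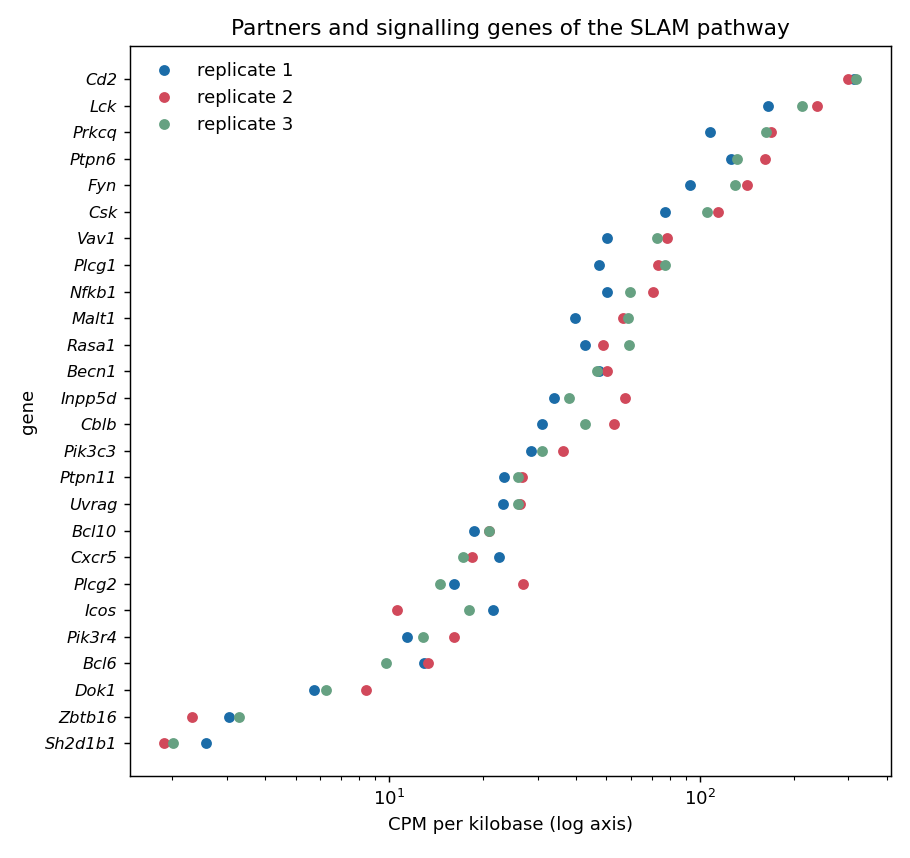
Levels in CPM per kilobase (log axis) of the 26 pathway genes tested, ordered by mean, with 1 point per library. Cd2 lies highest near 309 CPM per kilobase and Sh2d1b1 lowest near 2.16, and Lck, Prkcq and Fyn are each lowest in replicate 1.

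The 8 receptor genes lie on chromosome 1 and Sh2d1a on the X chromosome. In GRCm38.p6, Ly9 (171588613 to 171607410, minus strand), Slamf7 (171632403 to 171653037, minus), Cd48 (171681245 to 171705258, plus), Slamf1 (171767131 to 171801184, plus), Cd84 (171839697 to 171890718, plus) and Slamf6 (171917458 to 171948958, plus) form a run of 360 kb. No other measured coding gene lies wholly between neighbours of that run. Genes that overlap a member were not counted, and Cd244a, which overlaps Ly9, was not analysed here. After a gap of 510 kb with 13 measured coding genes come Slamf9 (172458569 to 172478421, plus) and, 103 kb on, Slamf8 (172581377 to 172590873, minus). Sh2d1a spans 42502565 to 42522097 on the plus strand.

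Levels did not follow position evenly. Inside the run, Slamf7 and Slamf1, at 13.7 and 12.0 CPM per kilobase, alternate with Ly9, Cd48 and Cd84, at 57.5, 70.5 and 44.8. Slamf6, the last gene of the run, had 61.0 by the deposited length. With the GENCODE M21 exon union Slamf6 had 13.8 and Slamf7 11.9, so the pattern depends on the length used. The members beyond the gap, Slamf9 and Slamf8, were the lowest receptors, although Tagln2, an actin-binding protein gene between them, had 87.9 CPM per kilobase. The 17 measured coding genes between members ranged from 0.143 to 87.9 CPM per kilobase, with a median of 2.87. The sources used here do not state whether counting used strand, so reads may be shared with opposite genes. In GENCODE M21, 423 exon bases of Slamf7, 9.24% of its exon union, overlap the antisense gene Gm37787, and 1465 bases of Sh2d1a, 26.6%, overlap Tenm1. Ly9 lies within the span of Cd244a on the opposite strand with no shared exon base.

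**Figure D5:**
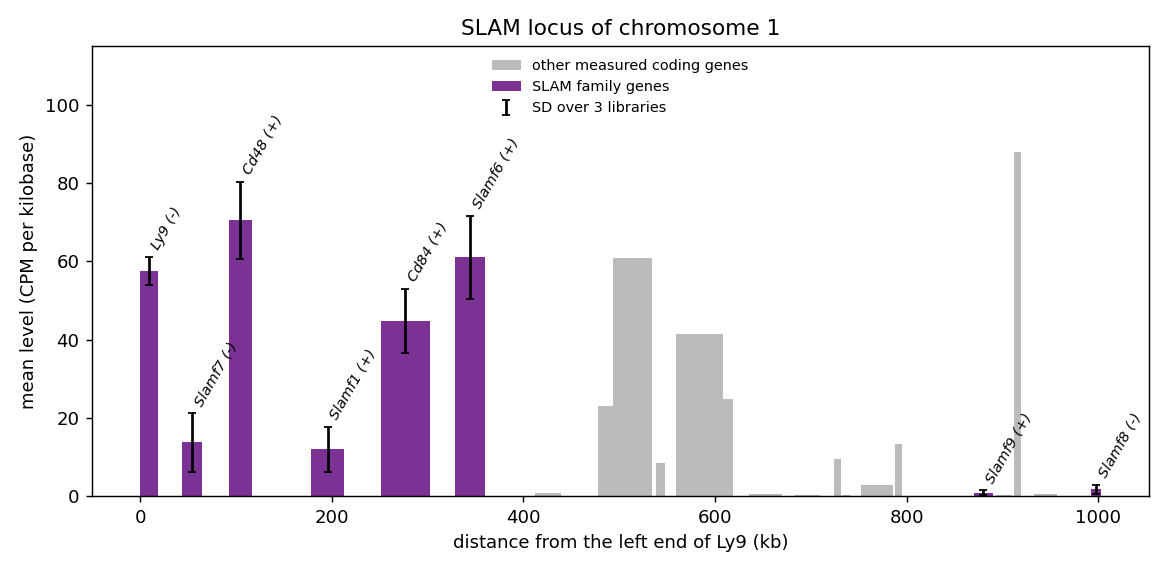
Mean level in CPM per kilobase over the SLAM locus of chromosome 1, by distance in kb from the left end of Ly9, with SLAM genes in purple (strand in brackets, SD over 3 libraries as bars) and other measured coding genes in grey. Levels use the deposited gene length. The tall purple bars stand between 0 and 360 kb, and Slamf9 and Slamf8 beyond 870.0 kb are close to 0.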

How the data were processed

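The deposited table holds raw read counts per gene for 3 libraries and a gene length in bases, used as the authors deposited them. Per the labels' protocols, 8 ng of total RNA per library went into a stranded total RNA kit for low input. Build mm10 and the tools featureCounts, STAR 2.75, DESeq2 1.18.1 and bcl2fastq appear, without roles, in the submitters' processing notes. Strand setting, annotation release, gene filter and the handling of multi-mapped reads are not given in the sources used here.

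The counts were normalised with TMM factors in edgeR 4.0.16 (1.04, 1.01 and 0.950), and 15490 genes with a sum of at least 10 were tested. Each level was tested against 1 CPM and 50 CPM with edgeR's quasi-likelihood F statistic, taking the deviance at the reference as null because glmQLFTest accepts no design of 1 column, two-sided, adjusted by Benjamini and Hochberg over all genes, threshold 0.05. The code was run on simulated counts with 1 common dispersion for all genes. That run does not show how the test behaves for genes that scatter more. Alternatives used DESeq2 1.42.0, limma 3.58.1, other totals and filters, other pseudocounts than the 0.1 CPM per kilobase of the ordering, and 1 library left out. Identifiers of 17795 genes, the 9 members included, matched RefSeq GRCm38.p6. A count of 0 allows 3 counts, or 0.317, 0.214 and 0.228 CPM.

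Members, lists and the naming rule (all members, all receptors, ligands and SAP family adaptors, the 2 highest and 2 lowest other pathway genes per kilobase, the 2 nearest marker genes of each member) were chosen with earlier results of these data known. Other genes were named after their values were seen. Of the lists, Cd244a and Il21 were not analysed here.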

Additional observations from a re-analysis of the deposited data

How the results depend on the processing

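Over 11 alternatives, 97 of 98 values of members against 1 CPM and 94 of 98 against 50 CPM kept their side of the threshold. The exceptions are Slamf8 against 1 CPM without replicate 1, Slamf1 against 50 CPM (3 alternatives) and Slamf9 against 50 CPM without replicate 3, with the values in the report, and Slamf9 could not be tested with edgeR's filterByExpr, which removed it. Values that missed the threshold changed sign for Slamf9 against 1 CPM (0.03 log2 units as reported, -0.34 in limma-voom, -0.37 without replicate 1 and -0.25 without replicate 2) and for Slamf7 against 50 CPM (0.13 as reported, -0.42 without replicate 2). Between 7 and 8 members lay above 1 CPM, 4 above 50 CPM and 2 to 4 below in every alternative. The number of all genes below 50 CPM was 6164 with filterByExpr, which tests fewer genes, against 10329, and ran from 5479 (without replicate 3) to 10579 with 1 library left out. The cause of the low count without replicate 3 was not tested. Leaving mitochondrial, ribosomal protein and globin genes out of the totals raised levels by a median of 0.23 log2 units. The order of neighbours turned round with no division by gene length for Cd48 minus Slamf6 (-0.88 log2 units), Ly9 minus Cd84 (-0.98) and Sh2d1a minus Slamf7 (-0.97). With the GENCODE M21 exon union it turned round for Slamf6 minus Ly9 (-1.64), Sh2d1a minus Slamf7 (-1.22) and Ly9 minus Cd84 (-0.054). With 1 library left out it turned round for Slamf7 minus Slamf1 without replicate 2 (-0.68, against 0.21) and Slamf6 minus Ly9 without replicate 3 (-0.035, against 0.07). Between 6 and 7 of the 8 pairs kept one order in all libraries used under every alternative. No paired analysis was possible because the labels give 1 group. Depth limits Slamf8 and Slamf9, with 122 and 36 reads in all.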
